A study of Mus musculus with 35 samples.

Results

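Integrins are cell surface adhesion receptors made of an alpha and a beta subunit, and 10 mouse genes for subunits known from myeloid cells are described here. They are Itgam, Itgax, Itgal, Itga4, Itga5, Itga6, Itgb1, Itgb2, Itgb3 and Itgb7, taken from the deposited expression table by the Entrez identifier of each symbol. All 10 were found among the 24454 genes of the table, and all 10 passed the filter on low values.

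Each alpha subunit leaves the cell interior only once it is paired with a beta subunit, so the pairing sets which receptors a cell can display. The beta subunit Itgb2 (CD18) pairs with Itgam (CD11b), Itgax (CD11c) or Itgal (CD11a) to give the leukocyte receptors for complement fragments, fibrinogen and the Icam proteins. Itga4 pairs with Itgb1 or Itgb7 and binds Vcam1, fibronectin and Madcam1, while Itga5 and Itga6 with Itgb1 are receptors for fibronectin and laminin. Itgam is widely used as a surface marker of granulocytes, monocytes and macrophages, and these receptors hold hematopoietic cells in the bone marrow and carry leukocytes into tissue.

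RNA was sequenced from bone marrow cells of transplanted C57BL/6 mice, labelled as sorted for GFP and CD45.2, as a stranded poly-A library of total RNA. The cells carried 1 of 3 leukemia fusion genes whose expression doxycycline turns off, and treated mice received doxycycline at 4 mg/ml. For each of NUP98-DDX10, NUP98-JARID1A and NUP98-NSD1 there were 4 untreated libraries (1 titled day 3 and 3 titled day 5), 3 libraries from 3 days on doxycycline and 3 from 5 days. The 3 libraries titled as controls are labelled untreated, with NUP98/NSD1, NUP98/JARID1A and NUP98/DDX40, NUP98/DDX41 or NUP98/DDX42 together as the genotype, so which construct these cells hold is not clear. There are 35 samples, of which 33 are RNA libraries in 10 groups. The 2 chromatin immunoprecipitation samples were not analysed here. The labels number the libraries within a group but do not name animals or primary leukemias, so every p-value measures only the spread between these samples, which may be technical.

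The libraries held 12043519 to 28912315 reads. The row named for NUP98-DDX10 fell from 9003 to 14121 normalized counts without doxycycline to 3.19 to 8.01 with it, that for NUP98-JARID1A from 3042 to 3489 to 60.2 to 100.3, and that for NUP98-NSD1 from 52599 to 58498 to 40.3 to 58.1. In the controls the NUP98-JARID1A row ranged from 2.52 to 72.0, the other 2 were at 0, and luciferase ranged from 9.09 to 473. The eGFP row was at 7445 to 17735 in the untreated fusion libraries, but at 1.06 to 7.29 in treated NUP98-DDX10, 11.4 to 20.6 in treated NUP98-NSD1, 294 to 400.4 in treated NUP98-JARID1A and 13.9 to 210.3 in control libraries, against the GFP sort in their labels. Ptprc, which encodes the sorted antigen CD45, was read in every library, at 24245 to 31017 in the controls and 4949 to 13234 in the fusion libraries. Control replicate 3 stood apart from the other 2 controls. Its summed level of 10 neutrophil markers was 255552 against 2963487 and 3236203, and of 8 B cell markers 85589 against 16415 and 18389. Comparisons with the controls are therefore given with and without it. Bulk RNA cannot tell apart fewer cells of a type and less RNA per cell, and this holds for each level below.

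**Figure D1:**
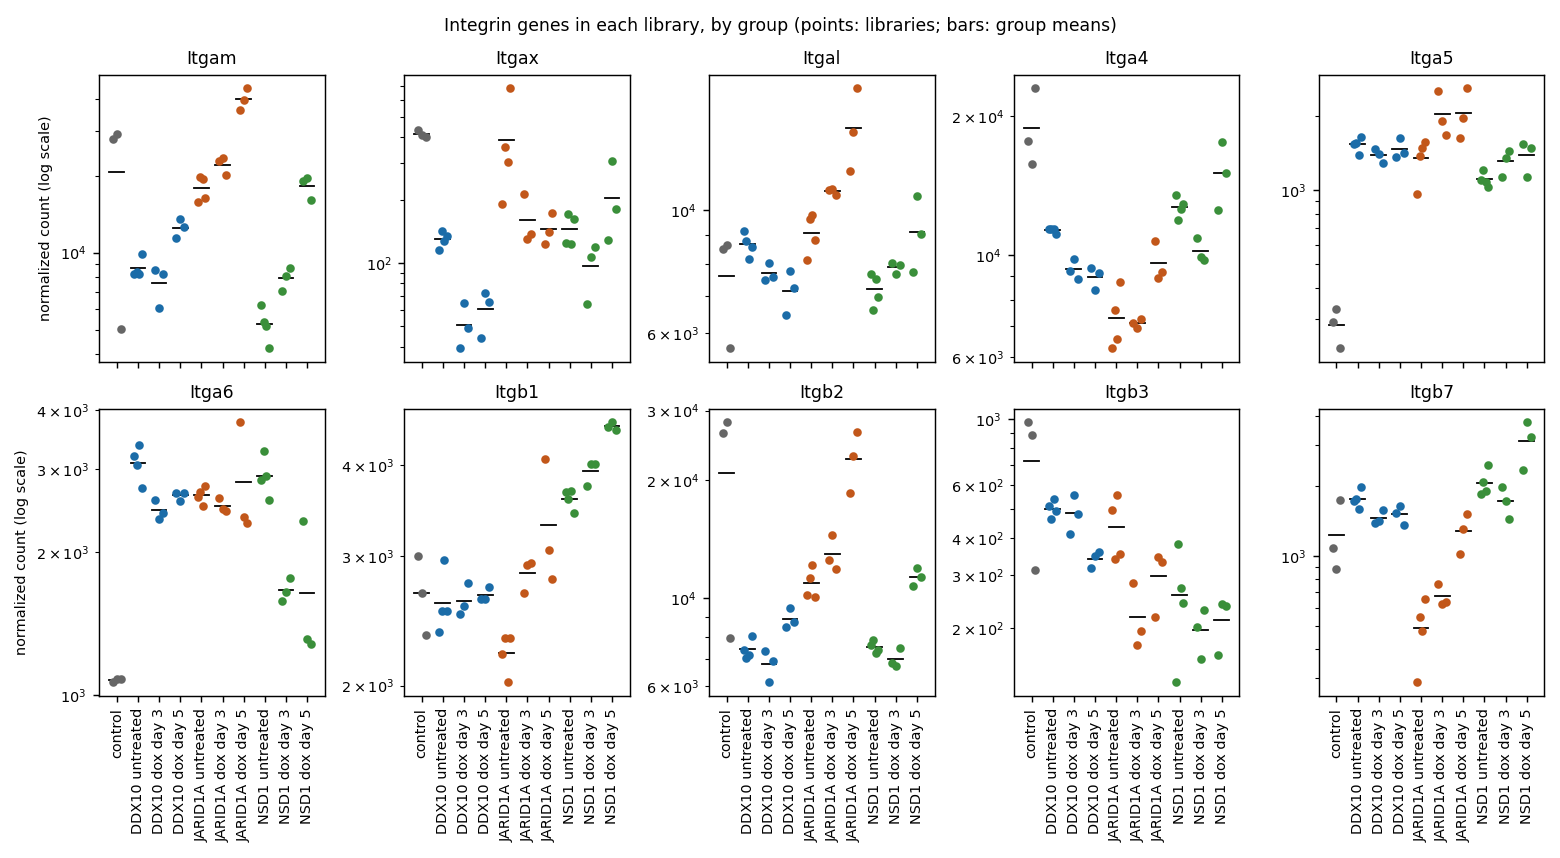
Normalized counts (log axis) of the 10 integrin genes in each of the 33 RNA libraries, by group; points are libraries and bars are group means. Itgam and Itgb2 sit highest at day 5 within each fusion, Itgax is higher without doxycycline in NUP98-DDX10 and NUP98-JARID1A, and 1 of the 3 control libraries lies far below the others for Itgam and Itgb2.

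Itgam, the alpha subunit of complement receptor Mac-1, lies at chr7:128062640-128118491 (GRCm38.p6), and Itgax, the alpha subunit known from dendritic cells, follows it at chr7:128129526-128150657, 11034 bases further on. Their promoters are shown because these neighbours moved in opposite directions after doxycycline in NUP98-JARID1A cells. Each sequence runs 5′ to 3′ on the gene's strand from 250 bases before to 50 after the start site, as given by RefSeq on GRCm38.p6. Capitals mark matches to 3 short motifs searched on both strands: GAGGAA (the core bound by PU.1), TGTGGT (the core bound by RUNX factors) and TGACAG (the core bound by MEIS factors).
Itgam chr7:128062390-128062689, plus strand: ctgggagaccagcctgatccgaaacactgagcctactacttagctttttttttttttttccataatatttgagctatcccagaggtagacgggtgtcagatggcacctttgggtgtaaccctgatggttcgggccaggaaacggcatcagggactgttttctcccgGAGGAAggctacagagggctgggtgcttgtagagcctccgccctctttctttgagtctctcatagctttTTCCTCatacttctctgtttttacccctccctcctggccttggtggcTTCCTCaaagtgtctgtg
Itgax chr7:128129300-128129599, plus strand: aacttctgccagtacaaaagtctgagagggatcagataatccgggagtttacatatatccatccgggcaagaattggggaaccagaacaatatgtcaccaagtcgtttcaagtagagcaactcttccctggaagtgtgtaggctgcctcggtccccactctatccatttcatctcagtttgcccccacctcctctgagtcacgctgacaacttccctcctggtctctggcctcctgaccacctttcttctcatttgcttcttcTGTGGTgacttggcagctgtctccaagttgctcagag
The Itgam promoter held GAGGAA 3 times, with first bases at -84, -15 and 33 from the start site, the last 2 on the minus strand. The Itgax promoter held no GAGGAA and 1 TGTGGT at 14. As entered, the Itgax start site lies inside the Itgax span given above, not at its 5′ end. No matches overlapped. GAGGAA is present in 28.3% of 32851 mouse promoters of this length, TGTGGT in 16.8% and TGACAG in 19.2%. A match describes the letters only and is not a measured binding site.

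Itgam rose after 5 days of doxycycline in NUP98-JARID1A and NUP98-NSD1 cells. In NUP98-DDX10 cells Itgam was at a normalized count of 8228, 8272, 8430.0 and 9880.4 without doxycycline, 6090.3, 8281 and 8545 at day 3, and 11390.2, 12649 and 13589 at day 5. In NUP98-JARID1A cells Itgam was at 15843, 16429, 19358 and 19804 without doxycycline, 20106, 22759 and 23388 at day 3, and 36095, 39477 and 44274 at day 5. In NUP98-NSD1 cells Itgam was at 4218, 5176, 5339 and 6262 without doxycycline, 7080.2, 8068 and 8739 at day 3, and 16138, 19070.5 and 19528 at day 5. All 9 day 5 libraries were above every untreated library of their own fusion. At day 3 this held in NUP98-JARID1A and NUP98-NSD1 cells, while the NUP98-DDX10 libraries overlapped. No day 3 difference in Itgam passed in the fit of all libraries. Fitted without the control libraries, it was 0.61 (log2) in NUP98-NSD1 cells and 0.24 averaged over fusions (limma, adjusted p = 0.00157 and 0.0169). In that fit it was 0.31 in NUP98-JARID1A and -0.20 in NUP98-DDX10 cells (limma, adjusted p = 0.0817 and 0.439).

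By fusion, the log2 difference in Itgam between day 5 and untreated libraries was 1.81 ± 0.33 (SE) in NUP98-NSD1 cells (limma, Benjamini-Hochberg adjusted p = 0.000124), a 3.5-fold rise. In NUP98-JARID1A cells it was 1.16 ± 0.33 (limma, adjusted p = 0.00511). In NUP98-DDX10 cells it was 0.53 with a 95% interval of -0.14 to 1.19 and did not pass the test (limma, adjusted p = 0.292). The wide spread of Itgam in the controls, 5042 to 29133, enters the error of this fit; fitted without the control libraries, the same NUP98-DDX10 difference of 0.53 had an SE of 0.13 and passed (limma, adjusted p = 0.00352). A test that the day 5 difference in Itgam is equal in the 3 fusions gave an adjusted p of 0.0974 (limma F test). From day 3 to day 5 Itgam rose by 1.20 (log2) in NUP98-NSD1 cells (limma, adjusted p = 0.025). That call was lost when any 1 of 5 of the 6 libraries was left out (adjusted p up to 0.105) and kept without day 5 replicate 3. It was also lost after quantile normalization of the log2 values, with 0.96. Fitted without the control libraries, this rise of 1.20 had an SE of 0.14 (limma, adjusted p = 2.4e-06).

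**Figure D2:**
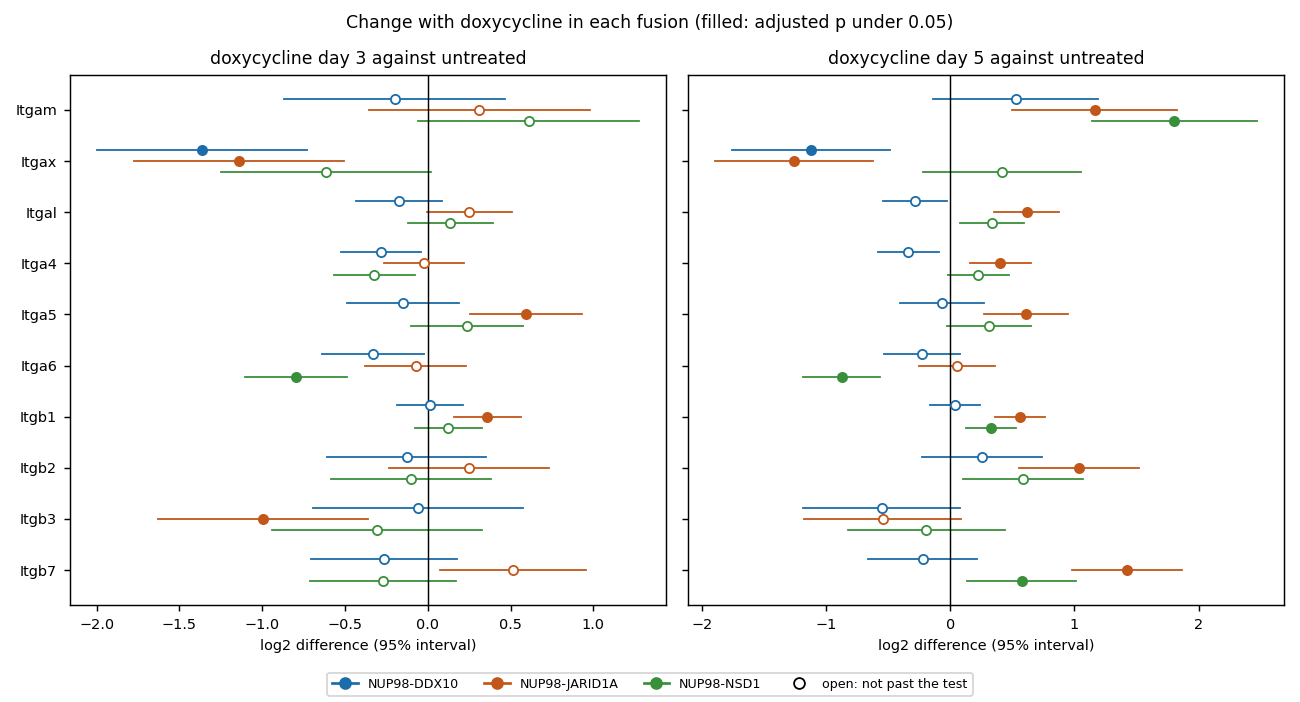
Log2 differences of the 10 integrin genes between doxycycline (day 3 and day 5) and untreated libraries in each fusion, with 95% intervals; filled points have an adjusted p under 0.05 (limma). The highest day 5 value is that of Itgam in NUP98-NSD1 cells (1.81) and the lowest is that of Itgax in NUP98-JARID1A cells (-1.26).

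Itgax fell after doxycycline in NUP98-DDX10 and NUP98-JARID1A cells. In NUP98-DDX10 cells Itgax was at 115, 128, 134 and 143 without doxycycline, 39.2, 48.9 and 64.8 at day 3, and 43.9, 65.1 and 72.1 at day 5. In NUP98-JARID1A cells Itgax was at 192, 304, 360.3 and 689.8 without doxycycline, 129.9, 139 and 215 at day 3, and 124, 141 and 174 at day 5. In NUP98-NSD1 cells Itgax was at 123, 125, 163 and 172 without doxycycline, 63.9, 108 and 119 at day 3, and 129, 181 and 307 at day 5. Treated and untreated libraries did not overlap in NUP98-DDX10 cells at either day, in NUP98-JARID1A cells at day 5, or in NUP98-NSD1 cells at day 3. They overlapped in NUP98-NSD1 cells at day 5. The lowest of these values rests on 35 reads.

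Itgax fell by 1.36 ± 0.31 (log2, SE) at day 3 and by 1.12 ± 0.31 at day 5 in NUP98-DDX10 cells (limma, adjusted p = 0.022 and 0.0139). In NUP98-JARID1A cells it fell by 1.14 and 1.26 (limma, adjusted p = 0.0116 and 0.00178). In NUP98-NSD1 cells the day 5 difference was 0.42 (limma, adjusted p = 0.362), and Itgax rose by 1.04 from day 3 to day 5 (limma, adjusted p = 0.0424). The day 5 difference in Itgax was not equal among the fusions (limma F test, adjusted p = 0.00785): it was 1.54 higher (log2) in NUP98-NSD1 than in NUP98-DDX10 cells, and NUP98-JARID1A less NUP98-NSD1 cells gave -1.68. The day 3 call in NUP98-DDX10 cells was lost without any 1 of 5 of the 7 libraries (adjusted p up to 0.171), and kept without untreated replicate 1 or day 3 replicate 2. It was lost under quantile normalization and in edgeR's quasi-likelihood test. At day 3 in NUP98-JARID1A cells it was lost without untreated replicate 4 or day 3 replicate 2 or 3 (up to 0.0694). At day 5 in NUP98-DDX10 cells it was lost without day 5 replicate 1 (0.0914), and from day 3 to day 5 in NUP98-NSD1 cells without any 1 of 4 of the 6 libraries (up to 0.303) and with no filter on low values.

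Itgal, the alpha subunit of LFA-1, which binds Icam1, lies at chr7:127296139-127335137. Its day 5 difference from untreated libraries passed the test in 1 fusion when all libraries were fitted. In NUP98-JARID1A cells Itgal was at 8130.1, 8826, 9623 and 9795 without doxycycline, 10616, 10855 and 10916 at day 3, and 11717, 13791 and 16588 at day 5. The day 3 and day 5 libraries were all above the untreated ones, and Itgal rose by 0.62 ± 0.13 (log2, SE) at day 5 (limma, adjusted p = 0.00028). In NUP98-DDX10 cells Itgal ranged from 8151 to 9169 without doxycycline and from 6454 to 7747 at day 5, a difference of -0.28 that did not pass (limma, adjusted p = 0.135; 0.0443 when fitted without the control libraries). In NUP98-NSD1 cells Itgal ranged from 6607 to 7671 and from 7736 to 10589.8, a difference of 0.34 (limma, adjusted p = 0.0502; 0.0116 without the controls). The day 5 difference was 0.90 higher in NUP98-JARID1A and 0.62 higher in NUP98-NSD1 than in NUP98-DDX10 cells (limma, adjusted p = 0.000684 and 0.029; F test over the 3 fusions 0.00143).

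Per kilobase of exon, the balance between Itgam and Itgal moved towards Itgam. The share of Itgam in the summed level of Itgam, Itgal and Itgax was 51.0, 52.6, 54.0 and 57.1% in the untreated NUP98-DDX10 libraries and 67.1, 67.1 and 67.3% at day 5. In NUP98-JARID1A cells this Itgam share was 66.7, 69.0, 69.2 and 69.9% untreated and 75.6, 76.9 and 78.2% at day 5. In NUP98-NSD1 cells it was 41.0, 44.3, 48.0 and 48.5% untreated and 67.2, 67.7 and 74.0% at day 5. Among untreated libraries Itgal was above Itgam only in those of NUP98-NSD1, and Itgax stayed below 5% in every library. Over the 3 fusions the Itgam share was 15.3 percentage points higher at day 5 (exact two-sided permutation test within fusions, p = 2.33e-05, the smallest that the 42875 arrangements can give; higher in 9 of 9 libraries). Among the controls it was 78.4 and 78.9% in replicates 1 and 2 and 49.3% in replicate 3.

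**Figure D3:**
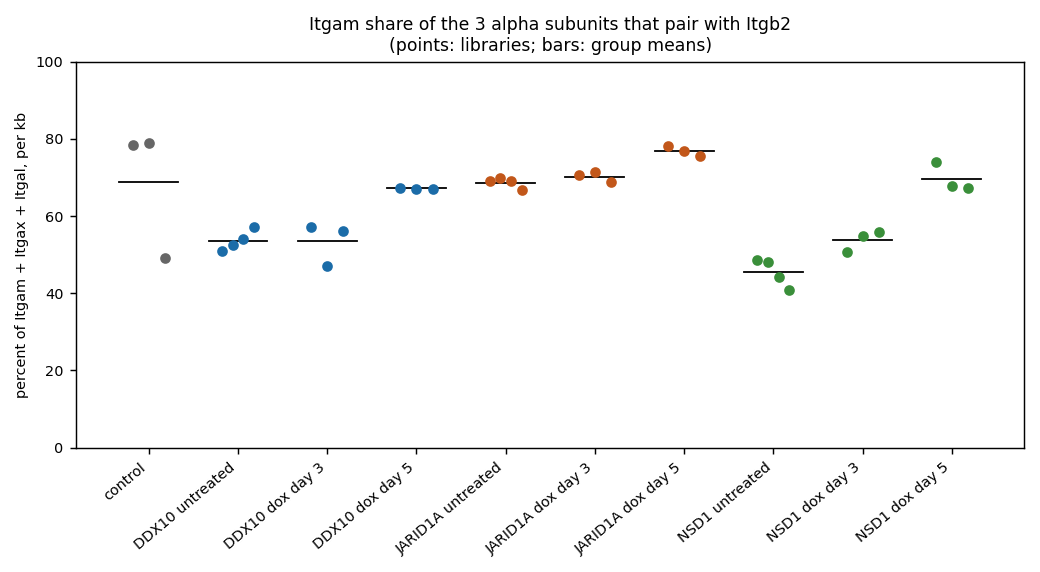
Share of Itgam (percent, axis from 0 to 100) in the summed level per kilobase of Itgam, Itgal and Itgax in each library, by group; points are libraries. Within each fusion the day 5 libraries (67.1 to 78.2%) lie above the untreated libraries.

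Itgb2, the partner of these 3 alpha subunits, lies at chr10:77530329-77565708. In NUP98-DDX10 cells Itgb2 was at 7076, 7166, 7420.4 and 8045 without doxycycline, 6119, 6933 and 7366 at day 3, and 8462, 8721 and 9443 at day 5. In NUP98-JARID1A cells Itgb2 was at 10059, 10219, 11285 and 12188 without doxycycline, 11888, 12538 and 14538 at day 3, and 18541, 22971 and 26497 at day 5. In NUP98-NSD1 cells Itgb2 was at 7277, 7383, 7620.1 and 7857 without doxycycline, 6739, 6845 and 7467 at day 3, and 10740.3, 11331 and 11939 at day 5. As for Itgam, the 9 day 5 libraries were above every untreated library of their fusion, while the day 3 libraries overlapped the untreated ones in all 3 fusions. Itgb2 rose by 1.04 ± 0.24 (log2, SE) at day 5 in NUP98-JARID1A cells (limma, adjusted p = 0.000787). In NUP98-NSD1 cells the difference was 0.59 (limma, adjusted p = 0.0667; 3.25e-05 when fitted without the control libraries), and in NUP98-DDX10 cells it was 0.26 (limma, adjusted p = 0.504). Averaged over fusions, Itgb2 rose by 0.63 ± 0.14 (limma, adjusted p = 0.000413).

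Itgb2 was correlated with Itgam over groups and libraries. At day 3 in NUP98-NSD1 cells, though, Itgam was above its untreated range and Itgb2 was not. Pearson's r of their log2 levels was 0.946 over the 9 fusion group means and 0.958 over the 33 libraries after group means were removed. For Itgal and Itgb2 these values were 0.914 and 0.763, and for Itgax and Itgb2 0.445 and 0.065. The points share libraries, size factors and, for the within-group value, the wide spread of the controls, so these are descriptions.

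**Figure D4:**
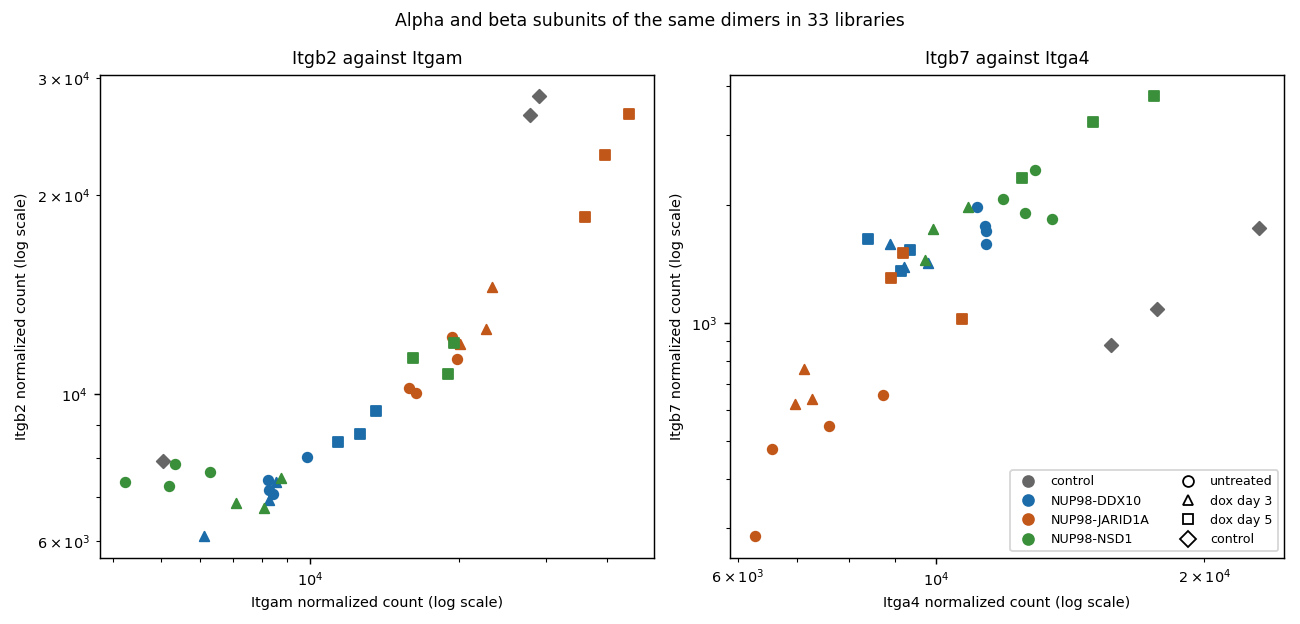
Normalized counts of Itgb2 against Itgam and of Itgb7 against Itga4 in the 33 libraries (both axes log), by group; each point is a library. Itgb2 is higher where Itgam is higher in most groups. At day 3 in NUP98-NSD1 cells Itgam lies above its untreated libraries and Itgb2 does not. The Itgb7 levels of the untreated NUP98-JARID1A libraries (287 to 655) lie below those of both other fusions.

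Itga4, the alpha subunit of the Vcam1 receptor, lies at chr2:79255426-79333114, and Itgb7, its partner in the gut homing receptor for Madcam1, lies at chr15:102215994-102233405. Their promoters are shown because the levels of this pair moved together over the fusion groups. Windows, source and capitals are as for Itgam. The start site in the Itgb7 entry lies inside the gene span given above, not at its 5′ end.
Itga4 chr2:79255176-79255475, plus strand: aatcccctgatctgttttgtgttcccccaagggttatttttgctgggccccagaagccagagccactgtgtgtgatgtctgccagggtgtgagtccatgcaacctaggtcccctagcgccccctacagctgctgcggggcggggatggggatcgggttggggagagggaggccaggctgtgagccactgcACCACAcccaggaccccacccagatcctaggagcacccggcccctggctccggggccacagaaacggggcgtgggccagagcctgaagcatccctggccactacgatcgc
Itgb7 chr15:102231886-102232185, minus strand: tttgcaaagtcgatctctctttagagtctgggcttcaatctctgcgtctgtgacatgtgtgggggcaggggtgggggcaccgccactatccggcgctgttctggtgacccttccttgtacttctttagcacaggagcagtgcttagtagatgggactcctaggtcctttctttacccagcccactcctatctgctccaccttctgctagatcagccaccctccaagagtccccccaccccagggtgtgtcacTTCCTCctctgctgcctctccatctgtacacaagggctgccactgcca
The Itga4 promoter held 1 TGTGGT on the minus strand with its first base at -60, and the Itgb7 promoter 1 GAGGAA on the minus strand at 3. Of the other members, Itga5 and Itgb1 each held 1 GAGGAA, at -127 and -9. TGACAG occurred in none of the 6 member promoters in the table. Itgal, Itga6, Itgb2 and Itgb3 had no entry.

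Itgb7 differed more between the untreated fusions than any other member. In NUP98-JARID1A cells Itgb7 was at 287, 476, 545 and 655 without doxycycline, 623, 638 and 762 at day 3, and 1023, 1303 and 1507 at day 5. In NUP98-NSD1 cells Itgb7 was at 1841, 1904, 2071 and 2446 without doxycycline, 1443, 1729 and 1969.9 at day 3, and 2338, 3249 and 3767 at day 5. In NUP98-DDX10 cells Itgb7 was at 1590.0, 1714, 1758 and 1967 without doxycycline, 1386, 1418 and 1582 at day 3, and 1354, 1536 and 1634 at day 5. The untreated NUP98-JARID1A libraries were below all libraries of the other fusions, and their day 5 libraries remained below the untreated libraries of both. Untreated Itgb7 in NUP98-JARID1A cells differed by -1.90 (log2) from NUP98-DDX10 cells and by -2.12 from NUP98-NSD1 cells (limma, adjusted p = 1.27e-08 and 8.46e-10).

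Itgb7 rose by 1.42 ± 0.22 (log2, SE) at day 5 in NUP98-JARID1A cells (limma, adjusted p = 5.87e-06), and by 0.58 ± 0.22 in NUP98-NSD1 cells (limma, adjusted p = 0.0492). The second call was lost without any 1 of 5 of the 7 libraries (adjusted p up to 0.249), and kept without untreated replicate 4 or day 5 replicate 1. It was also lost with a pseudocount of 0.25, no filter, quantile normalization (0.46) or the untreated libraries titled day 5 alone. In NUP98-DDX10 cells the day 5 difference was -0.22 (limma, adjusted p = 0.537), and the difference between NUP98-JARID1A and NUP98-DDX10 cells was 1.64 (limma, adjusted p = 0.00033; F test over the 3 fusions 0.000863). From day 3 to day 5 Itgb7 rose by 0.91 in NUP98-JARID1A and 0.85 in NUP98-NSD1 cells (limma, adjusted p = 0.0058 and 0.0166). In NUP98-NSD1 cells this was lost without day 3 replicate 3, day 5 replicate 2 or day 5 replicate 3 (up to 0.125).

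Itga4 fell at day 3 averaged over fusions and was then higher at day 5 than at day 3. In NUP98-DDX10 cells Itga4 was at 11125, 11352, 11374 and 11384 without doxycycline, 8887, 9216 and 9806 at day 3, and 8389, 9139 and 9370.2 at day 5. In NUP98-JARID1A cells Itga4 was at 6271, 6562, 7600.0 and 8739 without doxycycline, 6951, 7125 and 7272 at day 3, and 8918, 9182 and 10698 at day 5. In NUP98-NSD1 cells Itga4 was at 11894, 12586, 12921 and 13485 without doxycycline, 9737, 9920.1 and 10876 at day 3, and 12479.7, 15017 and 17551 at day 5. Every treated NUP98-DDX10 library and every day 3 NUP98-NSD1 library was below the untreated ones of its fusion. Every day 5 NUP98-JARID1A library was above its untreated ones, and those at day 3 overlapped them. The NUP98-NSD1 fall at day 3 passed only with the controls left out of the fit, at 0.32 (log2; limma, adjusted p = 0.0285).

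Itga4 rose by 0.40 ± 0.12 (log2, SE) at day 5 in NUP98-JARID1A cells (limma, adjusted p = 0.0075). After quantile normalization this was 0.07 and no longer passed. The day 5 differences were -0.34 in NUP98-DDX10 and 0.23 in NUP98-NSD1 cells (limma, adjusted p = 0.0547 and 0.176); the first passed when the controls were left out of the fit (0.0167). The 3 differences were not equal (limma F test, adjusted p = 0.0041; up to 0.29 over 31 alternatives, with 1 loss). From day 3 to day 5 Itga4 rose by 0.55 in NUP98-NSD1 and by 0.43 in NUP98-JARID1A cells (limma, adjusted p = 0.0057 and 0.0178). These calls were lost without NUP98-NSD1 day 5 replicate 2 (0.0724), and without NUP98-JARID1A day 3 replicate 2 or day 5 replicate 1. Both were lost after quantile normalization, with 0.34 and 0.14. Averaged over fusions, Itga4 fell by 0.21 at day 3 (limma, adjusted p = 0.0324), a call lost without any 1 of 8 of the 21 libraries, with no filter and after quantile normalization. Pearson's r between Itga4 and Itgb7 was 0.932 over the 9 fusion group means and 0.654 within groups over the 33 libraries. Over 10 group means, controls included, it was 0.645. The gene Cerkl overlaps Itga4, with 2 to 34 reads a library against 6203 to 18445 for Itga4.

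Itga6, an alpha subunit of laminin receptors at chr2:71786886-71858427, fell in NUP98-NSD1 cells. In NUP98-NSD1 cells Itga6 was at 2581, 2843, 2900.2 and 3276 without doxycycline, 1578, 1653 and 1762 at day 3, and 1282, 1310.3 and 2333 at day 5. All 6 treated libraries were below the untreated ones, with day 5 replicate 1 the nearest to them. The fall was 0.80 ± 0.15 (log2, SE) at day 3 and 0.87 ± 0.15 at day 5 (limma, adjusted p = 0.000759 and 6.61e-05). In NUP98-DDX10 cells Itga6 ranged from 2740.2 to 3375 untreated, 2353 to 2586 at day 3 and 2569 to 2677 at day 5, and in NUP98-JARID1A cells from 2508 to 2764, 2451 to 2603 and 2313 to 3781. The treated NUP98-DDX10 libraries lay below the untreated ones and those of NUP98-JARID1A overlapped, and no difference within either fusion passed the test. The day 5 difference was 0.93 higher in NUP98-JARID1A than in NUP98-NSD1 cells (limma, adjusted p = 0.00392; F test over the 3 fusions 0.00488).

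Itga5, the alpha subunit of the classical fibronectin receptor at chr15:103344286-103366791, rose in NUP98-JARID1A cells. There Itga5 was at 963, 1374, 1488 and 1577 without doxycycline, 1675, 1904 and 2525 at day 3, and 1624, 1961 and 2613 at day 5. The treated libraries were all above the untreated ones. The rise was 0.59 ± 0.17 (log2, SE) at day 3 and 0.61 ± 0.17 at day 5 (limma, adjusted p = 0.0136 and 0.00406). At day 3 the call was lost without untreated replicate 1 or day 3 replicate 1 (adjusted p up to 0.141) and with the untreated libraries titled day 5 alone, and at day 5 without day 5 replicate 3 (0.0613). Itga5 ranged from 1392 to 1648 untreated and 1369 to 1629 at day 5 in NUP98-DDX10 cells, and from 1035 to 1214 and 1128 to 1540.3 in NUP98-NSD1 cells. The microRNA gene Mir6963 lies within Itga5, with 0 to 3 reads a library.

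Itgb1, the beta subunit shared by Itga4, Itga5 and Itga6, lies at chr8:128685654-128733579. In NUP98-JARID1A cells Itgb1 was at 2020.2, 2209.9, 2319.9 and 2322 without doxycycline, 2674, 2919.6 and 2939 at day 3, and 2795, 3062 and 4069.9 at day 5. In NUP98-NSD1 cells Itgb1 was at 3443, 3591, 3674 and 3679.9 without doxycycline, 3743, 4004 and 4014 at day 3, and 4461, 4504 and 4579.8 at day 5. Treated and untreated libraries did not overlap in either fusion. In NUP98-DDX10 cells Itgb1 stayed between 2367 and 2963 at all times, with overlap. Itgb1 rose by 0.36 ± 0.10 at day 3 and 0.56 ± 0.10 at day 5 in NUP98-JARID1A cells (log2, SE; limma, adjusted p = 0.0118 and 4.36e-05), and by 0.33 ± 0.10 at day 5 in NUP98-NSD1 cells (limma, adjusted p = 0.0138). The day 3 call was lost without NUP98-JARID1A day 3 replicate 2 (0.0532), and the NUP98-NSD1 call without its day 5 replicate 2 (0.0504) and after quantile normalization (0.21). The day 5 difference was not equal among the fusions (limma F test, adjusted p = 0.0188; up to 0.234 over 31 alternatives, with 1 loss).

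Itgb3, the beta subunit of the vitronectin receptor and of the platelet fibrinogen receptor, lies at chr11:104608000-104670476. Among the fusion libraries its level ranged from 132 to 557. In NUP98-JARID1A cells Itgb3 was at 339.5, 355, 496 and 557 without doxycycline and 176, 196 and 284 at day 3, with no overlap, a fall of 0.99 ± 0.31 (log2, SE; limma, adjusted p = 0.0271). Its day 5 libraries, at 218, 333 and 347, overlapped the untreated ones. The day 3 call was lost without untreated replicate 1 or 3 or day 3 replicate 2 or 3 (adjusted p up to 0.128), and with the untreated libraries titled day 5 alone. In NUP98-DDX10 cells Itgb3 ranged from 462 to 539 untreated and 317 to 361 at day 5, with no overlap. That difference of -0.55 did not pass (limma, adjusted p = 0.111 without the controls). In NUP98-NSD1 cells all treated libraries lay within the untreated range of 132 to 381. Averaged over fusions, Itgb3 did not pass in the fit of all libraries. Without the controls it fell by 0.45 at day 3 and 0.43 at day 5 (limma, adjusted p = 0.0204 and 0.0142). The platelet partner of Itgb3 is Itga2b. The list of megakaryocyte and platelet markers summed to 17.9 to 127 in the untreated fusion libraries and 50.6 to 83.6 at day 5. In NUP98-JARID1A cells this sum was 61.9 to 127 untreated, 28.1 to 75.7 at day 3 and 76.6 to 83.6 at day 5. Its median there was 82.8 untreated and 48.3 at day 3, the time of the Itgb3 fall, with overlapping libraries. Of its 6 tested genes (9 listed) 1 rose and 1 fell at day 5 averaged over fusions, beside 22.6% of all features higher and 23.4% lower. These were Gp1bb and Gp9, at low mean levels of 5.09 and 11.3. The part of such cells in the Itgb3 level was not tested.

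Counted over all members at day 5, 6 of 10 rose and 2 fell when the fusions were averaged, where 46% of the 12687 tested features passed (22.6% higher and 23.4% lower). The median log2 difference was 0.25 over the members and -0.004 over all features. In NUP98-JARID1A cells 7 members rose and 1 fell, beside 20.1% and 21.2% of features (41.3% in either direction). In NUP98-NSD1 cells 3 rose and 1 fell, beside 13.5% and 11.9% (25.4%). In NUP98-DDX10 cells none rose and 1, Itgax, fell, beside 6.49% and 8.64% (15.1%), so its share of members called was near that of all features. The member medians were 0.59, 0.33 and -0.22 in the same order. With the controls left out of the fit, 4 of 10 members passed in NUP98-DDX10 cells beside 23.8% of features, and 6 in NUP98-NSD1 cells beside 33.9%.

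At day 3 the average over fusions had 1 member higher (Itgb1) and 3 lower (Itgax, Itga6 and Itga4), beside 8.67% and 9.91% of features (18.6% in either direction). The differences were 0.17 for Itgb1, -1.04 for Itgax and -0.40 for Itga6 (log2; limma, adjusted p = 0.0407, 0.000142 and 0.00151). The Itgb1 call was lost without any 1 of 13 of the 21 libraries, with no filter, after quantile normalization and with the untreated libraries titled day 5 alone. In NUP98-DDX10 cells 1 of 10 members fell and none rose, beside 0.962% and 0.134% of features (1.1%). In NUP98-JARID1A cells 2 rose and 2 fell, beside 8.1% and 7.62% (15.7%). In NUP98-NSD1 cells 1 fell, beside 4.59% lower and 4.55% higher (9.14%).

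From day 3 to day 5, 4 members rose in the average over fusions and none fell, beside 14.3% of features higher (27.7% in either direction). Itgam rose by 0.93, Itgb2 by 0.62, Itgb7 by 0.60 and Itga4 by 0.31 on the log2 scale (limma, adjusted p = 0.000993, 0.00192, 0.0012 and 0.00238), the last lost after quantile normalization. In NUP98-JARID1A cells 3 rose, beside 9.54% higher (19.9%), among them Itgb2 by 0.79 (limma, adjusted p = 0.0261). The Itgb2 call was lost without any 1 of 4 of the 6 libraries (adjusted p up to 0.107) and after quantile normalization. Fitted without the control libraries, this Itgb2 rise of 0.79 had an SE of 0.105 (limma, adjusted p = 3.83e-06). In NUP98-NSD1 cells 4 rose, beside 5.66% higher (10.6%). Itgb2 was not among these 4, and without the controls in the fit it rose there by 0.69 (limma, adjusted p = 5.51e-05). In NUP98-DDX10 cells 0 passed in limma's test (0.93% of features) and 1, Itgam, had an unadjusted p under 0.05. There edgeR and DESeq2 called 0 as well. With the controls left out of the fit, 2 members rose, beside 261 of 12117 features higher and 279 lower. They were Itgam, by 0.73, and Itgb2, by 0.39 (limma, adjusted p = 0.00304 and 0.0335). These comparisons share their day 5 libraries with those against untreated cells.

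Between fusions, 6 of 10 members had unequal day 5 differences (limma F test; 26% of features), namely Itgax, Itgal, Itga4, Itga6, Itgb1 and Itgb7. Of the pairwise differences, 5 members were higher and none lower in NUP98-JARID1A than in NUP98-DDX10 cells, beside 11.9% of features higher (23.1% in either direction). In NUP98-NSD1 against NUP98-DDX10 cells 3 members were higher, beside 5.5% (8.32%), and in NUP98-JARID1A against NUP98-NSD1 cells 2 passed, beside 11.6%. For day 3 differences 0 of 10 passed in limma (7.08% of features); 3, Itga5, Itga6 and Itgb7, had an unadjusted p under 0.05, DESeq2 called 1 and edgeR 0.

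Markers of granulocytes and monocytes rose at day 5 in NUP98-JARID1A and NUP98-NSD1 cells. Of 10 neutrophil markers 9 rose averaged over fusions (22.6% of features higher), 6 in NUP98-JARID1A (20.1%), 6 in NUP98-NSD1 (13.5%) and 0 in NUP98-DDX10 cells (6.49%), and none fell. Their summed level went from 161110.0 to 210316 untreated to 545616 to 903542 at day 5 in NUP98-JARID1A cells, and from 36893 to 82602 to 109560 to 260087 in NUP98-NSD1 cells. In NUP98-DDX10 cells it was 43589.5 to 59488 and 43962 to 75307. No neutrophil marker was at 0 in any group. Of 10 monocyte and macrophage markers 9 rose and 1 fell in the mean, 9 rose in NUP98-JARID1A, 8 rose and 1 fell in NUP98-NSD1, and 2 rose in NUP98-DDX10 cells. Their summed levels untreated and at day 5 were 36449 to 42726 and 73000.1 to 93972 in NUP98-JARID1A cells, 69038 to 81580.0 and 68885 to 83909.7 in NUP98-NSD1 cells, and 71424.5 to 90132 and 59777 to 65575 in NUP98-DDX10 cells. None of these was at 0 either. In NUP98-DDX10 cells the monocyte sum was lower at day 5 with no overlap, and in NUP98-NSD1 cells it overlapped. Ly6c2, with the highest mean level of the list (31900), weighs most in these sums. It is the marker that fell averaged over fusions, by 0.33 on the log2 scale (limma, adjusted p = 0.0272).

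Of 10 dendritic cell markers, the list nearest to Itgax, 2 rose and 3 fell at day 5 in the mean (46% of features passed). In NUP98-DDX10 cells 4 fell (8.64% of features lower), in NUP98-JARID1A cells 2 rose and 2 fell (41.3% passed), and in NUP98-NSD1 cells 2 rose (13.5% higher). Their sums were 10049.8 to 11518 untreated and 8041 to 8862 at day 5 in NUP98-DDX10 cells, 3837 to 6036 and 3624 to 4101 in NUP98-JARID1A cells, and 6469 to 8563 and 6179.6 to 7939 in NUP98-NSD1 cells, with none at 0. The T and NK cell list summed to 747 to 1132 untreated and 51.2 to 72.4 at day 5 in NUP98-JARID1A cells, where Klrb1c made up most of it and Cd3e, Ncr1 and Gzma were at 0. B cell markers summed to 1033 to 2294 in all fusion libraries. Ptprc rose at day 5 by 0.67 (log2) averaged over fusions (limma, adjusted p = 4.31e-09). The part of these cell types in the integrin levels was not tested.

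Without doxycycline the levels per kilobase of exon ran in a different order in each fusion. In NUP98-DDX10 cells Itgb2 (2496 normalized counts per kilobase) was above Itgam (1859), Itgal (1572) and Itga4 (1150.2). In NUP98-JARID1A cells Itgam (3814) and Itgb2 (3677) stood above Itgal (1649) and Itga4 (742). In NUP98-NSD1 cells Itgb2 (2533) was followed by Itgal (1303), Itga4 (1294) and Itgam (1121). The lowest per kilobase was Itgax in NUP98-DDX10 and NUP98-NSD1 cells (29.1 and 32.6) and Itgb3 in NUP98-JARID1A cells (73.3).

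Among untreated libraries 9 of 10 members differed between the fusions (limma F test; 69.8% of features), and Itga6 did not pass (adjusted p = 0.327). By pairs, 6 members passed between NUP98-JARID1A and NUP98-DDX10 cells (41.7% of features), 8 between NUP98-JARID1A and NUP98-NSD1 cells (58.6%) and 4 between NUP98-NSD1 and NUP98-DDX10 cells (41.9%). Itgam was 1.03 higher (log2) in NUP98-JARID1A than in NUP98-DDX10 cells and 1.77 higher than in NUP98-NSD1 cells (limma, adjusted p = 0.00684 and 1.6e-05). Itgax was 1.41 and 1.26 higher there, and Itga4 differed by -0.65 and -0.81 on the log2 scale. Itgb1 was 0.48 higher in NUP98-NSD1 than in NUP98-DDX10 cells. Leaving out single libraries or changing settings ended the F test's call for Itgb2 in 13 of 22 alternatives, for Itga5 in 5, Itgal in 4 and Itgb3 in 1.

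Across all 10 groups, Itgam was highest in NUP98-JARID1A cells at day 5, whose libraries did not overlap those of the next group, NUP98-JARID1A at day 3. The controls, NUP98-NSD1 at day 5 and untreated NUP98-JARID1A cells followed with overlapping libraries, and untreated NUP98-NSD1 cells were lowest. Itgb2 had the same group on top, overlapping the controls, and NUP98-DDX10 at day 3 at the bottom. Itgal was highest in NUP98-JARID1A at day 5, then at day 3, each apart from the next group. Itgb1 was highest in the NUP98-NSD1 groups in the order day 5, day 3 and untreated, the first 2 each apart from the next. Itga4, Itgax and Itgb3 were highest in the controls, and Itgax and Itgb3 had no gap between any neighbouring groups. Itga5 and Itga6 were lowest in the controls, apart from the next group in both. Itgb7 was highest in NUP98-NSD1 at day 5 and lowest in untreated NUP98-JARID1A cells.

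Against the controls, Itga5 and Itga6 were higher and Itga4 lower in the untreated cells of every fusion. Itga5 was at 227, 290.3 and 329 in the controls, below every fusion library, and the log2 difference was 2.45 for NUP98-DDX10, 2.25 for NUP98-JARID1A and 1.98 for NUP98-NSD1 cells. Itga6 was at 1062, 1080.0 and 1082, with differences of 1.52, 1.30 and 1.43. Itga4 was at 15731, 17680.3 and 23037, above every untreated fusion library, with differences of -0.72, -1.36 and -0.55. All 9 of these passed the test (limma). Without control replicate 3 they were 2.31, 2.10 and 1.84 for Itga5, 1.52, 1.30 and 1.43 for Itga6, and -0.56, -1.21 and -0.39 for Itga4. In all 7 members passed in NUP98-DDX10 (68.5% of features), 7 in NUP98-JARID1A (69.4%) and 9 in NUP98-NSD1 cells (64.6%). Without control replicate 3 these were 8 (69.5%), 8 (71%) and 10 (64.7%). The 3 comparisons share the same controls, whose markers of other cell types were higher. Erythroid markers summed to 7171 to 68580 in the controls and 7.77 to 72.7 in the untreated fusion libraries. For B cell markers these sums were 16415 to 85589 and 1033 to 1956. Control replicate 3 was the highest control for both sums and for Itga4. The part of these cell types in the differences from the controls was not tested.

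The differences of Itgam and Itgb2 from the controls depended on control replicate 3. Itgax was at 399 in that library and at 410 and 433 in the other controls. Itgam was at 5042 in that library and at 27914 and 29133 in the other controls, and Itgb2 at 7919.7 against 26339 and 28135. With all 3 controls the Itgam difference was -0.88 in untreated NUP98-DDX10 cells, 0.15 in NUP98-JARID1A cells and -1.62 in NUP98-NSD1 cells (log2; limma, adjusted p = 0.0181, 0.69 and 9e-05). Without replicate 3 the differences were -1.72, -0.68 and -2.46, so the sign in NUP98-JARID1A cells turned (limma, adjusted p = 0.000128). The NUP98-DDX10 call was lost without control replicate 1 or 2 (up to 0.232). Itgb2 was lower in all 3 fusions, with differences of -1.28, -0.73 and -1.26 with replicate 3 and -1.88, -1.32 and -1.85 without it; the NUP98-JARID1A call was lost without control replicate 1 or 2 (up to 0.133). Neutrophil markers moved with these values between the controls, as given above; their part was not tested.

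**Figure D5:**
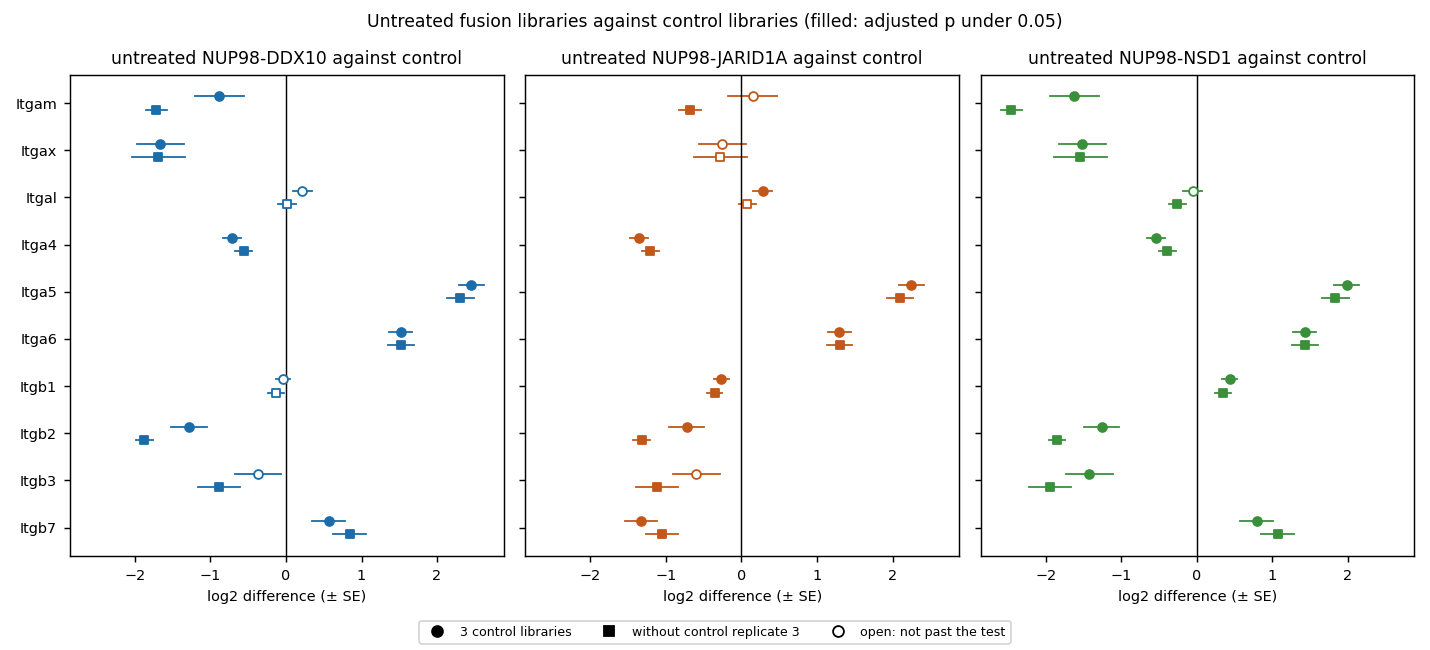
Log2 differences between untreated libraries of each fusion and the controls for the 10 integrin genes, ± SE, with all 3 controls (circles) and without control replicate 3 (squares); filled points have an adjusted p under 0.05 (limma). Itga5 and Itga6 lie above 0 in every fusion under both choices, while Itgam in NUP98-JARID1A cells moves from 0.15 to -0.68.

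After 5 days of doxycycline 6 to 8 of the members differed from the controls in each fusion. Itga5 was 2.39, 2.86 and 2.29 (log2) above the controls in NUP98-DDX10, NUP98-JARID1A and NUP98-NSD1 cells, and Itgax differed from them by -2.79, -1.51 and -1.10. Each of these passed (limma); the Itgax call in NUP98-NSD1 cells was lost without its day 5 replicate 1 (adjusted p = 0.0568). Itgam in NUP98-JARID1A cells was 1.31 above the controls, and 0.48 above them without control replicate 3 (limma, adjusted p = 0.0063). In NUP98-NSD1 cells Itgam did not pass with all 3 controls and differed by -0.65 without replicate 3 (limma, adjusted p = 0.000547). The members past the test numbered 6 in NUP98-DDX10 (64.8% of features), 8 in NUP98-JARID1A (67.3%) and 8 in NUP98-NSD1 cells (58.9%). Without control replicate 3 they numbered 9 (66.2%), 8 (68.5%) and 8 (60.1%).

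Other genes of the integrin system were counted at day 5, averaged over fusions, where 22.6% of all features rose and 23.4% fell. Of 24 tested activation and adaptor genes (28 listed), 13 rose and 2 fell, with a median log2 difference of 0.34. Not all of the listed genes promote the high affinity state, so the count gives no direction of integrin activity. Vcl (vinculin) rose by 1.01, Parvb by 1.20, Fyb by 0.91 and Flna (filamin A) by 0.75. By fusion 2 rose and 2 fell in NUP98-DDX10 cells (6.49% and 8.64% of features), 14 and 2 in NUP98-JARID1A cells (20.1% and 21.2%), and 13 and 1 in NUP98-NSD1 cells (13.5% and 11.9%). Of 11 tested other integrin subunits (16 listed) 2 rose and 3 fell, close to the 46% of all features that passed. Itgav, the alpha partner of Itgb3 in the vitronectin receptor, rose by 0.69, Itga8 rose by 2.29, the collagen receptor subunit Itga1 fell by 0.83 and Itgad fell by 1.43 at a mean level of 5.33.

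Of 15 tested integrin ligands (27 listed) 6 rose and 2 fell, beside 46% of all features passing. Fn1 (fibronectin), the ligand of Itga4 and Itga5 receptors, rose by 3.42 ± 0.41 (log2, SE; limma, adjusted p = 1.19e-07). Its levels differed widely. Fn1 ranged from 8168 to 15369 untreated and 45452 to 48256 at day 5 in NUP98-DDX10 cells, and from 13.1 to 64.1 and 2497 to 4286 in NUP98-JARID1A cells. In NUP98-NSD1 cells it ranged from 212 to 1310 and from 957 to 15447, with overlap. Tgfbi, a matrix protein bound by integrins, rose by 2.33, and Icam2, a ligand of Itgal with Itgb2, fell by 0.94. Spp1 (osteopontin) rose by 1.03 in the mean, but rose by 1.81 in NUP98-DDX10 and 2.29 in NUP98-JARID1A cells and fell by 0.999 in NUP98-NSD1 cells (limma, adjusted p = 0.000436, 3.19e-06 and 0.0265). Of 18 tested other leukocyte adhesion genes (19 listed) 6 rose and 5 fell, beside 46% of all features passing. Pecam1 (CD31) fell by 2.03, while Jaml rose by 2.21, Alcam by 1.19 and L1cam by 1.16. The L1cam rise came with differences of 1.89 in NUP98-JARID1A and 2.21 in NUP98-NSD1 cells and of -0.62 in NUP98-DDX10 cells, where it did not pass (limma, adjusted p = 0.0928) although its libraries did not overlap. All of these named changes in the mean passed the test (limma).

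The genes most alike in pattern were taken as the 3 with the highest Pearson's r to each member over the 10 group means of log2 levels. Candidates needed a plain symbol (not a Gm or Rik name) and a mean level above 387.1, the median of tested features. The 10 groups share libraries and size factors between genes, and each r is a description. For Itgam they were Kctd10 (0.98), Flna (0.966) and Cap1 (0.965), and for Itgb2 Kif3b (0.983), Antxr2 (0.979) and Inpp4a (0.975). For Itgal they were Stx2 (0.97), Tmem185b (0.961) and Prex1 (0.959), and for Itgax Pml (0.946), Il2rg (0.941) and Bcl11a (0.928). For Itga4 they were Pik3ca (0.944), Rb1cc1 (0.944) and Klhl24 (0.939), and for Itgb7 Tifa (0.971), Scpep1 (0.947) and Tmem176b (0.945). Itga5 was closest to Ctc1 (0.989), Arhgdia (0.986) and Higd2a (0.986), Itga6 to Chchd5 (0.954), Coq9 (0.948) and Arhgap31 (0.943), and Itgb1 to Selenow (0.981), Anxa4 (0.971) and Ifitm2 (0.968). Itgb3 had the lowest values, with Usp38 (0.917), Znrd1 (0.884) and Nt5dc1 (0.879). No member was among the 3 closest genes of another, but Itgax and Itgb3 lay under the level needed and could not be picked. The only gene of the fixed lists among the closest genes was Flna, and list genes under that level were likewise left out.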

How the data were processed

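Per the labels' protocols, the RNA of sorted marrow cells from transplanted animals was sequenced as stranded poly-A libraries. The submitters' processing notes name STAR, SAMtools, featureCounts and DESeq2 and, as builds, GRCm38 and mm10, all without versions. Whether counting used strand is not given in the sources used here. The deposited values are a signal, here the authors' normalized counts: each library's reads over its size factor. All (100%) of the values were whole reads after division by that step (tolerance 0.01 reads), which let count tests run on the recovered reads.

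Members and lists were chosen with earlier results of these data known. Values were tested as log2(value + 1), so fold changes of low genes are understated. The test was limma 3.58.1 in R 4.3.3 with a trended variance, over 33 libraries and 10 group means. The filter kept features that reached 10 in 3 or more libraries, 12687 in all (12682 genes and 5 constructs). The p-values were Benjamini-Hochberg adjusted over these, with a threshold of 0.05. The controls were in the fit, so their spread enters every error. A log2 difference in the mean of the fusions is the average of the 3 within-fusion differences. The named genes include the 10 members. From each pathway list came the 4 tested genes with the smallest adjusted p at day 5 averaged over fusions. The 3 genes with the highest Pearson's r to each member came from candidates with plain symbols and a mean level above 387.1. Klrb1c, Ptprc and other marker genes, as well as Cerkl, were named after their values were seen. Levels per kilobase use the union of exons in RefSeq's GRCm38.p6 annotation. Alternatives were edgeR 4.0.16, DESeq2 1.42.0, other pseudocounts and filters, quantile normalization, a replicate block, the untreated libraries titled day 5 alone, no controls, and each library left out. Tests were tried on simulated data. Python 3.11.15, pandas 2.3.3 and matplotlib 3.10.9 were used for tables and figures.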

Additional observations from a re-analysis of the deposited data

Results flagged for a closer look

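In 4 untreated NUP98-DDX10 libraries 1 lay far from the rest for Itgam, the highest at a normalized count of 9880, and 1 for Itga4, the lowest at 11125. These were 2 of 30 sets of libraries checked, and chance flags about 1 in 20. The Itga4 libraries lay close together (11125 to 11384).

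For 6 members the day 5 difference from untreated libraries was not equal among the 3 fusions. The limma F test gave adjusted p-values of 0.000863 for Itgb7, 0.00143 for Itgal, 0.0041 for Itga4, 0.00488 for Itga6, 0.00785 for Itgax and 0.0188 for Itgb1. Itgb7, Itgal and Itga4 had positive differences in NUP98-JARID1A and NUP98-NSD1 cells and negative ones in NUP98-DDX10 cells.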

How the results depend on the processing

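Counts of members past the test, 10 tested, changed as follows. At day 3 the mean of the fusions had 4, and 2 with no filter or quantile normalization; NUP98-DDX10 had 1, and 0 under quantile normalization or edgeR; NUP98-JARID1A had 4, and 2 with the untreated libraries titled day 5 alone. NUP98-NSD1 at day 3 had 1, and 2 in DESeq2, 3 with a replicate block and 3 without the controls, while the day 3 F test had 0 and 1 under each of these. At day 5 NUP98-DDX10 had 1, and 2 under quantile normalization or DESeq2, 3 with the replicate block and 4 without the controls; NUP98-NSD1 had 4, and 2 under quantile normalization. The replicate numbers do not pair the samples: 5 of 27 same-number correlations exceeded 0.1 (range -0.377 to 0.247). With the replicate block 42 called values stayed called, 0 were lost and 13 were gained.

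Leaving out 1 library gave, at day 3, 2 to 4 members in the mean, 0 to 1 for NUP98-DDX10 cells, 1 to 4 for NUP98-JARID1A cells, 1 in NUP98-NSD1 and 0 in the F test. At day 5 it gave 8 to 9, 0 (without NUP98-DDX10 day 5 replicate 1) to 1, 7 to 8, and 2 (without NUP98-NSD1 day 5 replicate 2) to 6, with 6 to 7 in the F test and 4 to 5 from day 3 to day 5. Against the controls it gave 5 to 8, 5 to 8 and 9 to 10 for untreated cells, and 5 to 9, 7 to 9 and 5 (without NUP98-NSD1 day 5 replicate 1) to 8 at day 5, in the same order of fusions. The untreated F test gave 6 to 8, below its 9. The Itgam share difference stayed between 14.6 and 15.7 points. That of Itga4 among Itga4, Itga5 and Itga6 was 2.06 points (exact permutation p = 0.292) and ranged from 0.887 to 3.49.

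Against the controls, leaving out 1 library gave -0.68 (without control replicate 3) to 0.58 for Itgam in untreated NUP98-JARID1A cells, -0.65 to 0.62 for Itgam in NUP98-NSD1 cells at day 5 and -0.28 to 0.64 for Itgb2 in NUP98-JARID1A cells at day 5. Of single values past the test, 716 stayed and 31 were lost over the other alternatives, and 702 stayed and 90 were lost with 1 library left out. Of those not past it, 53 and 24 were gained. A further 92 of 3200 changed sign while never past the test; leaving these aside was decided after seeing the data. Where no setting is named as the reason, the cause was not tested. Itgax rests on the fewest reads of the members, which limits its precision.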
